A study of Rattus norvegicus with 9 samples.

Results

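The renin-angiotensin genes of the rat thoracic aorta were followed on two-colour Agilent arrays that set offspring of diabetic mothers against offspring of control mothers. All 6 listed genes, *Agt*, *Ace*, *Agtr1a*, *Agtr1b*, *Agtr2* and *Nr3c2*, were chosen by name and were present, each with 1 probe, among 9653 genes with a symbol and 19478 features tested. One animal of each origin was labelled with Cy3 or Cy5 and both were hybridised to the same array, giving 9 arrays from 5 animal pairs. A pair is named here by its offspring of a diabetic mother: 193 (against control offspring 189), 194 (against 190), 197 (against 191), 199 (against 192) and 220 (against 216). Pairs 193, 197, 199 and 220 were measured in both dye orientations and pair 194 in 1. An array is called by the dye of the diabetic mother's offspring, as the Cy3 array or the Cy5 array. The labels do not say how the mothers became diabetic, nor the strain, sex, age or litters of the offspring, and no further treatment is named for either group.

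Each value is a log ratio between the animals of a pair, taken as log2 although its base is not stated. Which origin a positive value stands for is not stated either, so values are called positive or negative as deposited, and all signs would turn together if the direction were the reverse. The Cy5 arrays were taken as already turned to the direction of the Cy3 arrays. The 2 arrays of a pair correlated across features at r = 0.15, 0.67 and 0.072 for pairs 193, 197 and 220, but at -0.18 for pair 199, whose Cy5 array had the widest spread of all arrays (SD 0.57, against 0.27 to 0.53 in the others). Features are not independent, so these correlations are descriptions. Ratios hold no levels, so neither the amount of a transcript in the aorta nor the presence of the tissue's own markers can be read from them.

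Angiotensinogen, the product of *Agt*, is cut to angiotensin I, which angiotensin-converting enzyme turns into angiotensin II. Angiotensin II acts on smooth muscle through type 1 receptors, which in rodents come from *Agtr1a* and *Agtr1b*, and raises vascular tone. The type 2 receptor, from *Agtr2*, opposes several of these actions, and the mineralocorticoid receptor, from *Nr3c2*, binds the aldosterone that angiotensin II releases from the adrenal gland. Much of the angiotensinogen made outside the liver comes from fat, including the fat around vessels.

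The type 1 receptor genes lie on different chromosomes, and their promoters are shown because the array follows these close paralogs with separate probes, whose values are compared below. The 250 bases before each RefSeq start site (GRCr8) run from chr17:34435433-34435682 on the minus strand for *Agtr1a* and from chr2:104849263-104849512 on the minus strand for *Agtr1b*. Capitals mark a TATA box core (TATAAA) or a CCAAT box (CCAAT), searched on both strands.
Agtr1a: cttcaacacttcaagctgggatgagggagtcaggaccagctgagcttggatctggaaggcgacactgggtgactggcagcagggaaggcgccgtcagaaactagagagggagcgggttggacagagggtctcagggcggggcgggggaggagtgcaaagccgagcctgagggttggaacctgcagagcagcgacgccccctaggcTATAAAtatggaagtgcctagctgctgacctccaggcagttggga
Agtr1b: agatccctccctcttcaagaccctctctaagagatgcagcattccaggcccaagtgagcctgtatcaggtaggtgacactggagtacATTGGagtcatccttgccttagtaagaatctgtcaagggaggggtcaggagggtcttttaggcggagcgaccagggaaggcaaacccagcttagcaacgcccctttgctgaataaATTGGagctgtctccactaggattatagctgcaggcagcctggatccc
*Agtr1a* held TATAAA on its own strand, beginning 45 bases before the start, as did 12.9% of all 33469 promoter windows of this length on either strand. *Agtr1b* held CCAAT on the opposite strand at 2 places, and 34.0% of all windows held at least 1. The longest run shared by these 2 windows was 10 bases. A half-site of steroid receptors (AGAACA, either strand) was in neither window and in 17.5% of all windows.

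*Agt* had the largest mean log ratio of the 6 genes, at 0.71 ± 0.76 (SD, n = 5 pairs). In pairs 193, 197, 199 and 220 the Cy3 arrays gave 0.66, 1.33, 1.94 and 0.22 and the Cy5 arrays 0.15, 0.93, 1.73 and -0.12, and the array of pair 194 gave 0.13. The pair means were thus 0.40, 0.13, 1.13, 1.84 and 0.051 in pairs 193, 194, 197, 199 and 220. Pairs 197 and 199 stood above the other 3, and 8 of 9 arrays were positive. The share of features with a higher value than *Agt* was 2.51%, 28.3%, 0.77%, 0.26% and 41.8% in pairs 193, 194, 197, 199 and 220. In whole aorta, more cells of a type and more RNA per cell cannot be told apart.

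The limma fit over the 5 pairs gave *Agt* a 95% interval of 0.13 to 1.29 and an adjusted p of 0.926 over all features, and its unadjusted p was below 0.05. The interval and p rest on a variance that limma draws toward that of all features. For *Agt* this variance was smaller than its own spread between pairs gives, so the interval is narrower. Without this moderation the adjusted p of *Agt* was 0.944 in the same fit. The exact two-sided sign-flip test gave p = 0.0625, the smallest that 5 pairs allow. By the size of its mean *Agt* ranked 87 of 19478 features. It was positive in each pair, as were 3.34% of all features, while 6.16% of all features kept 1 sign, of either kind, in each pair, and none of the other 5 members did. Pair 194, at 0.13, had the Cy3 array alone, and *Agt* was higher on the Cy3 array in each swapped pair, by 0.37 on average. The count of positive pairs and the sign-flip p thus include a value not corrected for dye. With the mean dye effect subtracted from pair 194 the mean of *Agt* was 0.67, but the value of pair 194 itself became negative. *Agt* was then no longer positive in each pair, so that count and the smallest sign-flip p hold only without this correction. The mean was 0.43 without pair 199 and 0.19 without both pairs 197 and 199, a setting chosen after the values were seen.

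**Figure D1:**
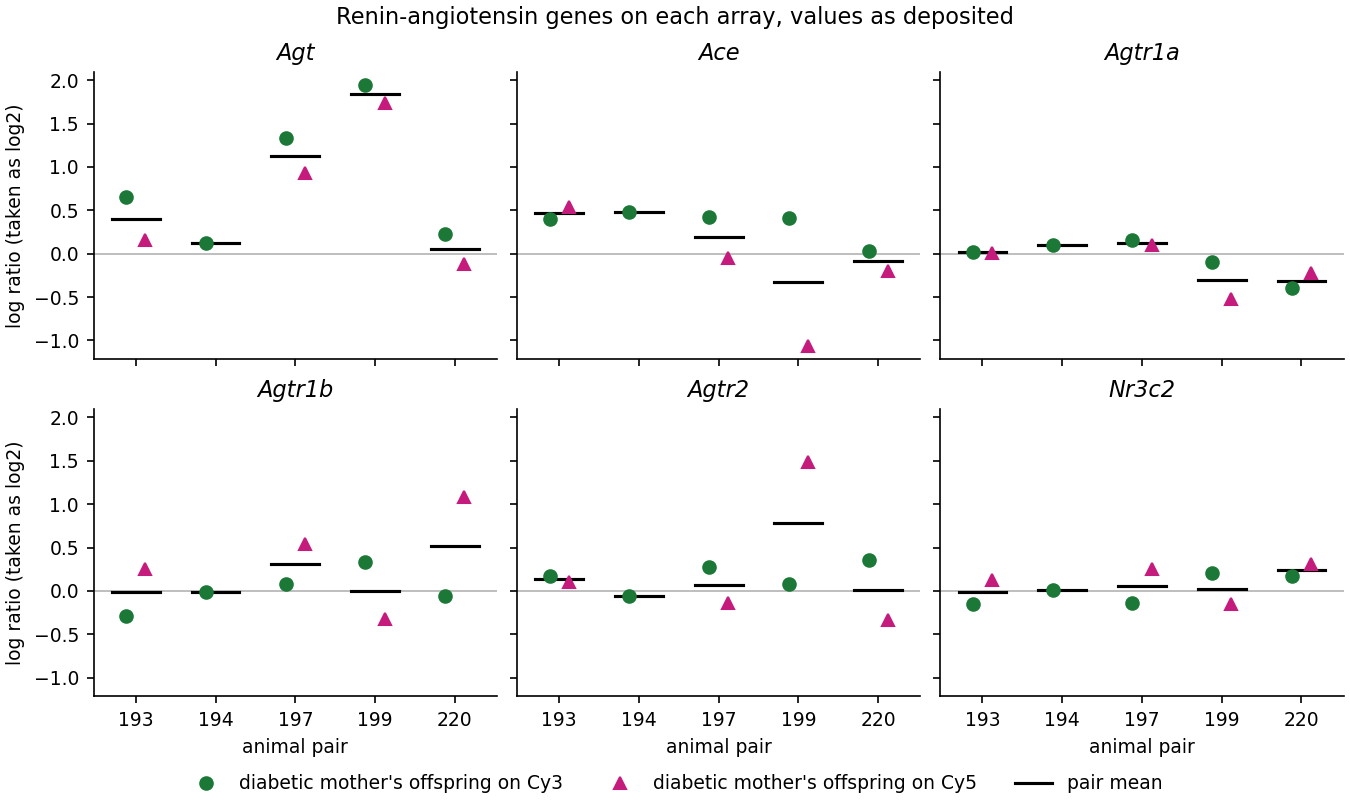
Log ratio (y axis, taken as log2, as deposited) of each of the 6 genes in each animal pair (x axis), with a circle for the Cy3 array, a triangle for the Cy5 array and a bar for the pair mean. *Agt* was highest in pairs 197 and 199 on both arrays, while the 2 arrays of pair 199 lay far apart for *Ace* (0.41 and -1.06) and *Agtr2* (0.076 and 1.48).

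*Ace*, which encodes the enzyme that makes angiotensin II on the endothelial surface, averaged 0.14 ± 0.35 over the pairs (95% interval -0.16 to 0.45, limma adjusted p = 0.936). Its Cy3 arrays of pairs 193, 197, 199 and 220 read 0.40, 0.43, 0.41 and 0.031, its Cy5 arrays 0.53, -0.045, -1.06 and -0.19, and the array of pair 194 read 0.48. All 5 Cy3 arrays were positive, whereas 3 of the 4 Cy5 arrays were negative. Without the Cy5 array of pair 199, an alternative chosen after seeing the data, the mean was 0.29. Endothelial markers (13 measured, led by *Emcn* and *Kdr*), as a list mean, were at 0.29, 0.17, 0.45, -0.097 and 0.065 in pairs 193, 194, 197, 199 and 220, and the pair means of *Ace* were 0.46, 0.48, 0.19, -0.33 and -0.081. Both pair means were positive in pairs 193, 194 and 197 and negative in pair 199, and in pair 220 only *Ace* was negative. The negative values of pair 199 came from its Cy5 array alone. There the endothelial list mean was -0.24 and *Ace* -1.06, whereas the Cy3 array of that pair gave 0.047 and 0.41. The part of the endothelium in the values of *Ace* was not tested.

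*Agtr1a*, the main type 1 receptor gene of rodent vessels, was at -0.075 ± 0.22 (95% interval -0.31 to 0.16, limma adjusted p = 0.954). Over pairs 193, 197, 199 and 220 its Cy3 arrays gave 0.024, 0.16, -0.091 and -0.40 and its Cy5 arrays 0.0087, 0.099, -0.52 and -0.23, beside 0.096 on the array of pair 194. In each swapped pair both arrays of *Agtr1a* had the same sign, positive in pairs 193 and 197 and negative in pairs 199 and 220.

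*Agtr1b*, the second type 1 receptor gene, was at 0.16 ± 0.24 (95% interval -0.083 to 0.40, limma adjusted p = 0.926). Values on the Cy3 arrays of pairs 193, 197, 199 and 220 were -0.28, 0.083, 0.33 and -0.057, those on the Cy5 arrays 0.25, 0.54, -0.32 and 1.08, and that of pair 194 was -0.0084. The highest value, 1.08, thus stood on 1 array and was not repeated on the other array of the same RNA. The 2 type 1 receptor genes correlated at r = 0.15 over the 9 arrays and at -0.20 without the Cy5 array of pair 199. The array's probe sequences were not used here, so the extent to which either probe also binds the paralog's transcript was not tested.

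*Agtr2*, the type 2 receptor gene, was at 0.19 ± 0.34 (95% interval -0.11 to 0.49, limma adjusted p = 0.926). For pairs 193, 197, 199 and 220 its Cy3 arrays gave 0.17, 0.27, 0.076 and 0.36 and its Cy5 arrays 0.10, -0.14, 1.48 and -0.33, with -0.062 for pair 194. The high value of pair 199 came from its Cy5 array alone, and without that array the mean was 0.046. *Nr3c2*, the mineralocorticoid receptor gene, stayed nearest to 0, at 0.063 ± 0.10 (95% interval -0.12 to 0.25, limma adjusted p = 0.952). Its Cy3 arrays of pairs 193, 197, 199 and 220 lay at -0.15, -0.14, 0.21 and 0.17, its Cy5 arrays at 0.13, 0.25, -0.16 and 0.31, and pair 194 at 0.0062. Only in pair 220 did both arrays of *Nr3c2* have the same sign.

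None of the 6 genes passed an adjusted p of 0.05 in limma, and the same held for all 19478 features, a background of 0 percent. At an unadjusted p under 0.05, 1 of the 6 genes, *Agt*, was reached, beside 929 of all features (4.77%). Without moderation of the variances 0 of the 6 passed. Of the 6 means 5 were positive, with a median of 0.15, whereas 51.3% of all features had a positive mean and their median was 0.0037. These intervals leave room for mean differences of up to 0.49 in size for the 5 genes other than *Agt*, and a p above the threshold does not show that a gene was alike in the offspring of diabetic and control mothers.

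The 2 arrays of a swapped pair carry the same RNA, so their half-difference holds the array error of 1 pair mean and any dye effect. A dye effect cancels in the pair mean but not in the half-difference, which can therefore exceed the error of the pair mean. For *Agt* the Cy3 array was higher by 0.50, 0.40, 0.21 and 0.35 in pairs 193, 197, 199 and 220. For *Agt* the root mean square of the half-difference was 0.19, against an SD of 0.79 between the means of the 4 swapped pairs. *Agtr1a* also varied more between pairs (0.22) than between arrays (0.12). For the other 4 genes the arrays of a pair differed at least as much as the pairs did, with 0.39 between arrays and 0.34 between pairs for *Ace*, 0.37 and 0.26 for *Agtr1b*, 0.41 and 0.36 for *Agtr2*, and 0.15 and 0.11 for *Nr3c2*. The median half-difference over all features was 0.19.

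**Figure D2:**
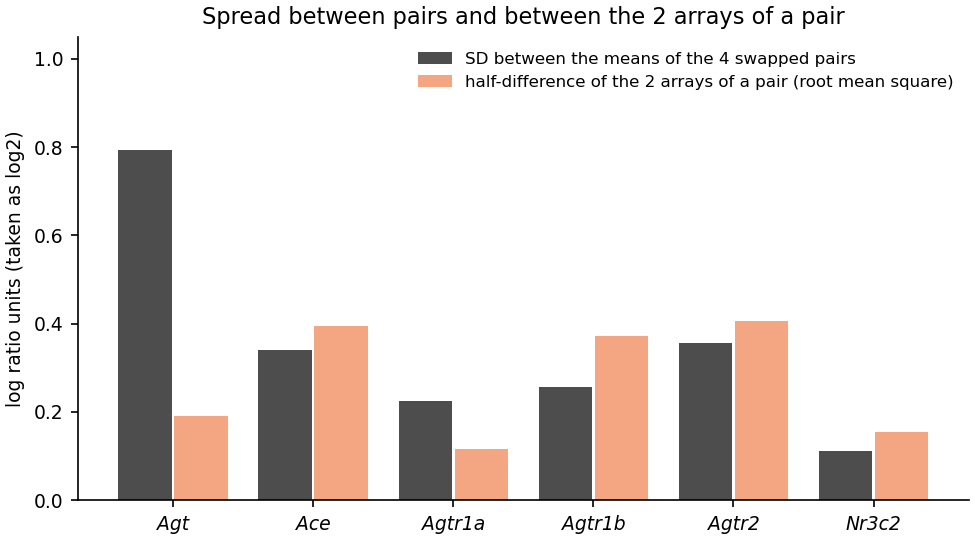
For each gene, the dark bar is the SD between the means of the 4 swapped animal pairs and the light bar the root mean square of the half-difference between the 2 arrays of a pair (y axis, log ratio units taken as log2). The dark bar exceeds the light one for *Agt* (0.79 and 0.19) and *Agtr1a* (0.22 and 0.12).

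The pairs in which *Agt* was highest were also those in which fat cell genes were highest. Of 17 listed white adipocyte markers 12 were measured, and their list mean was -0.15, 0.26, 2.07, 1.89 and -0.096 in pairs 193, 194, 197, 199 and 220. In both pair 197 and pair 199, 11 of the 12 were above 0.5. Adipsin (*Cfd*) and lipoprotein lipase (*Lpl*), the 2 white markers with the largest means, reached 2.74 and 3.74 in pair 197, and 2.83 and 2.26 in pair 199. Leptin (*Lep*) did not, with 0.081 in the first and -0.098 in the second. Of 11 brown adipocyte markers 6 were measured, with a list mean of -0.46, -1.07, 2.49, 1.72 and 0.12 in the 5 pairs. The uncoupling protein *Ucp1* and *Cidea*, both of brown fat, reached 4.84 and 3.49 in pair 197, and 2.75 and 3.24 in pair 199. In both pairs 4 of the 6 were above 0.5, and the other two, *Ppargc1a* (0.023 and -0.20) and *Fabp3* (0.19 and -0.22), were negative in pair 199.

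Over the 9 arrays the median r of the markers with *Agt* was 0.86 for the white and 0.76 for the brown list, and at most 0.45, for fibroblast markers, among the other cell types. *Agt* was larger in pair 199 than in pair 197. Among the white markers 5 of 12, *Adipoq*, *Cfd*, *Cidec*, *Lipe* and *Fasn*, were likewise larger in pair 199, where the list median was 1.97 against 1.90 in pair 197, whereas the list mean was larger in pair 197. All 6 brown markers were larger in pair 197. In pair 193 *Agt* was at 0.40 beside adipocyte list means below 0. In pair 194 *Agt* was at 0.13 beside a brown list mean of -1.07. The part of fat cells in the values of *Agt* was not tested. Smooth muscle markers (11 measured, led by *Itga8* at -0.65 and *Myl9* at -0.53 over the pairs) had list means of -0.50, 0.081, -1.02, 0.21 and -0.15 in pairs 193, 194, 197, 199 and 220, and fibroblast markers (10 measured, led by *Col1a2* and *Dcn*) of -0.27, -0.37, 0.41, 0.23 and -0.046. List means of leukocyte markers (12 measured, led by *Lyz2* and *Cd74*) lay between -0.25 and 0.24 and those of mast cell markers (9 measured, led by *Hdc* and *Kit*), cells that carry a chymase able to make angiotensin II, between -0.092 and 0.29. Schwann cell markers (6 measured, led by *Scn7a* and *Pmp22*) reached 2.24 in pair 194, against -0.17 to 0.19 elsewhere. No marker of these lists passed in limma, where 0 percent of all features did, and 5 of 79 (6.33%) had an unadjusted p under 0.05, beside 4.77% of all features. These 5 were 3 white adipocyte and 2 endothelial markers. Whether these cell types bear on the other members was not tested.

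**Figure D3:**
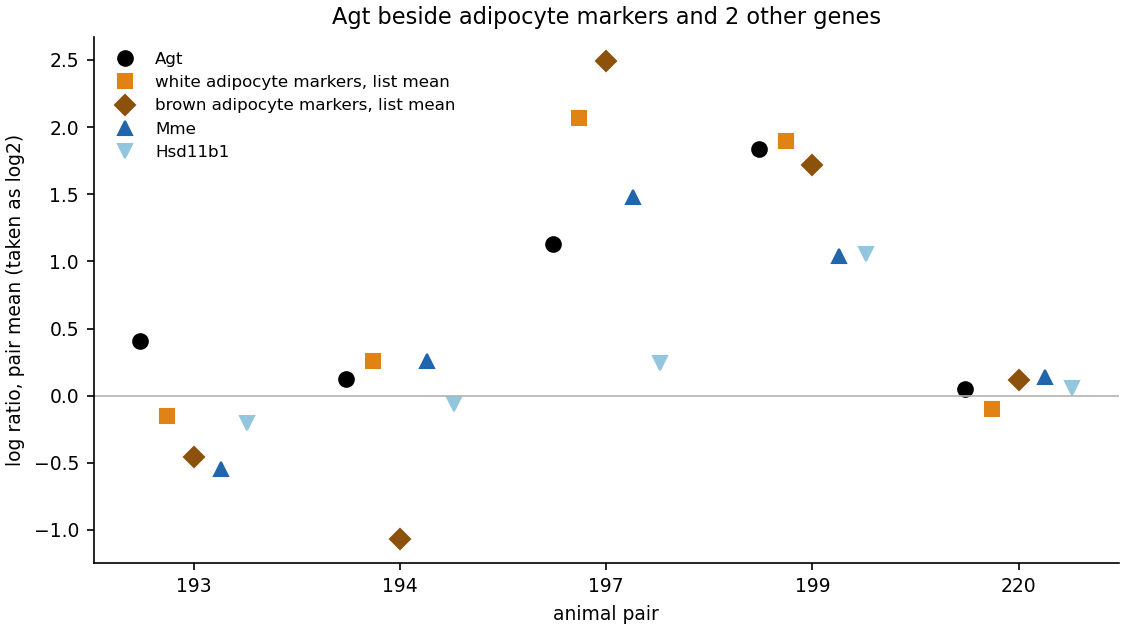
Pair mean log ratio (y axis, taken as log2) in each animal pair (x axis) of *Agt*, of *Mme* and *Hsd11b1*, and of the list means of white and brown adipocyte markers. All of them were positive in pairs 197 and 199, and *Agt* and the brown marker mean lay on opposite sides of 0 in pairs 193 and 194.

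The genes most like *Agt* over the 9 arrays, among 4707 genes with an SD of at least 0.3, were *Acad10*, of the acyl-CoA dehydrogenase family (Pearson r = 0.98), *Abcd2*, a peroxisomal fatty acid transporter (0.96), *Lipe*, hormone-sensitive lipase (0.95), *Mt2A*, a metallothionein (0.95), and *Nnmt*, nicotinamide N-methyltransferase (0.95). Without the Cy5 array of pair 199 these correlations were between 0.93 and 0.97. In pairs 197 and 199 *Acad10* had 0.53 and 1.02, *Nnmt* 0.36 and 1.08 and *Mt2A* 0.62 and 1.63, so these too were larger in pair 199. The arrays of 1 pair share their RNA, so the 9 points are not independent and these correlations are descriptions.

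For the other members the most similar genes were *Slc39a10* for *Ace* (r = 0.96, and 0.85 without the Cy5 array of pair 199), *Atp2b3* for *Agtr1a* (0.94 and 0.88), *Nmbr* for *Agtr1b* (0.97 and 0.97), *Dnaaf2* for *Agtr2* (0.99 and 0.93) and *Commd10* for *Nr3c2* (0.89 and 0.86). Next came *Tk1* and *Zfp64* for *Ace*, *Mmachc* and *Tubb2b* for *Agtr1a*, *Ahr* and *Suds3* for *Agtr1b*, *Knstrn* and *Cbln2* for *Agtr2* and *Card9* and *Slc24a4* for *Nr3c2*, at r from 0.88 to 0.97. Without the Cy5 array of pair 199, *Tk1*, *Zfp64*, *Knstrn* and *Cbln2* fell to 0.81, 0.75, 0.82 and 0.69. The others then lay between 0.84 and 0.96. Among the members themselves *Agtr1b* and *Nr3c2* were alike (r = 0.81, and 0.77 without that array), and *Agtr1b* and *Agtr2* ran opposite (-0.69 and -0.80). For these genes the arrays of a pair differed more than the pairs did. The Cy3 array minus the Cy5 array was -0.53, -0.46, 0.65 and -1.14 for *Agtr1b* in pairs 193, 197, 199 and 220. It had the same sign for *Nr3c2* and the opposite sign for *Agtr2* in each of these pairs. How far these correlations reflect differences between animals was not tested. *Ace* and *Agtr2* were at -0.69 with that array and at 0.48 without it, so this relation rests on 1 array. *Agt* had r between -0.35 and 0.54 with the other 5 members, and between -0.17 and 0.33 without that array. Its r was 0.54 and 0.29 with *Agtr2*, and changed sign with *Ace* (-0.27 and 0.31) and *Agtr1a* (-0.10 and 0.33).

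The enzymes that make or degrade angiotensin peptides gave 9 positive and 4 negative means among 13 measured of 20 listed genes, with a median of 0.039 and none past the threshold. *Mme*, neprilysin, which cuts angiotensin I to angiotensin 1-7, had the largest mean at 0.47 ± 0.80, with -0.55, 0.26, 1.48, 1.04 and 0.14 in pairs 193, 194, 197, 199 and 220. Like *Agt* it was highest in pairs 197 and 199, but unlike *Agt* it was negative in pair 193. The lysosomal carboxypeptidase gene *Ctsa* was at -0.18 ± 0.28 and the mast cell protease gene *Mcpt1* at 0.12 ± 0.16. *Atp6ap2*, which encodes an accessory protein of the vacuolar proton pump, was at 0.025 ± 0.20.

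Among 16 measured of 21 listed receptors and signalling partners 8 means were positive and 8 negative, with a median of 0.0026 and none past the threshold. The regulators of G protein signalling *Rgs5*, a pericyte and smooth muscle gene, and *Rgs2*, which limits signalling through Gq, were at 0.41 ± 0.31 and 0.33 ± 0.88. *Rgs5* was positive in each pair, at 0.11, 0.15, 0.51, 0.88 and 0.37 in pairs 193, 194, 197, 199 and 220, while *Rgs2* ranged from -0.56 in pair 193 to 1.75 in pair 199. The G protein subunit gene *Gna11* was at -0.23 ± 0.35. *Mas1*, the receptor of angiotensin 1-7, was at 0.093 ± 0.30.

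Of 12 listed genes of aldosterone and corticosteroid handling 11 were measured, 7 with positive and 4 with negative means (median 0.059, none past the threshold). The chaperone gene *Hsp90ab1*, whose product holds steroid receptors ready for ligand, was at 0.28 ± 0.55 and reached 1.21 in pair 199. *Hsd11b1*, which regenerates active glucocorticoid, was at 0.22 ± 0.50, with 1.06 as the mean of pair 199, 0.24 as that of pair 197 and between -0.20 and 0.056 in the others. *Hsd11b2*, which inactivates glucocorticoid and so shields the mineralocorticoid receptor, was at 0.11 ± 0.18. The cochaperone gene *Fkbp5* was at -0.16 ± 0.39 and the glucocorticoid receptor gene *Nr3c1* at -0.024 ± 0.19.

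Genes known to respond to angiotensin II or mineralocorticoids had 18 negative and 4 positive means among 22 measured of 25 listed (median -0.051, none past the threshold). Of all features 51.3% had a positive mean. The list mean was -0.019, -0.37, -0.30, 0.033 and 0.20 in pairs 193, 194, 197, 199 and 220, so its sign differed between pairs. The adhesion molecule gene *Vcam1* was at -0.66 ± 0.28 and negative in each pair, the matrix-associated growth factor gene *Ccn2* at -0.45 ± 1.40 and osteopontin (*Spp1*) at -0.41 ± 1.04. *Ccn2* ranged from -1.85 in pair 197 to 1.14 in pair 220, and *Spp1* was lowest in pair 197, at -2.18. In contrast *Sgk1*, a kinase induced through mineralocorticoid and glucocorticoid receptors, was at 0.34 ± 0.19 and positive in each pair, at 0.12, 0.34, 0.55, 0.18 and 0.52 in pairs 193, 194, 197, 199 and 220. The limma adjusted p of *Vcam1* and *Sgk1* was 0.926.

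**Figure D4:**
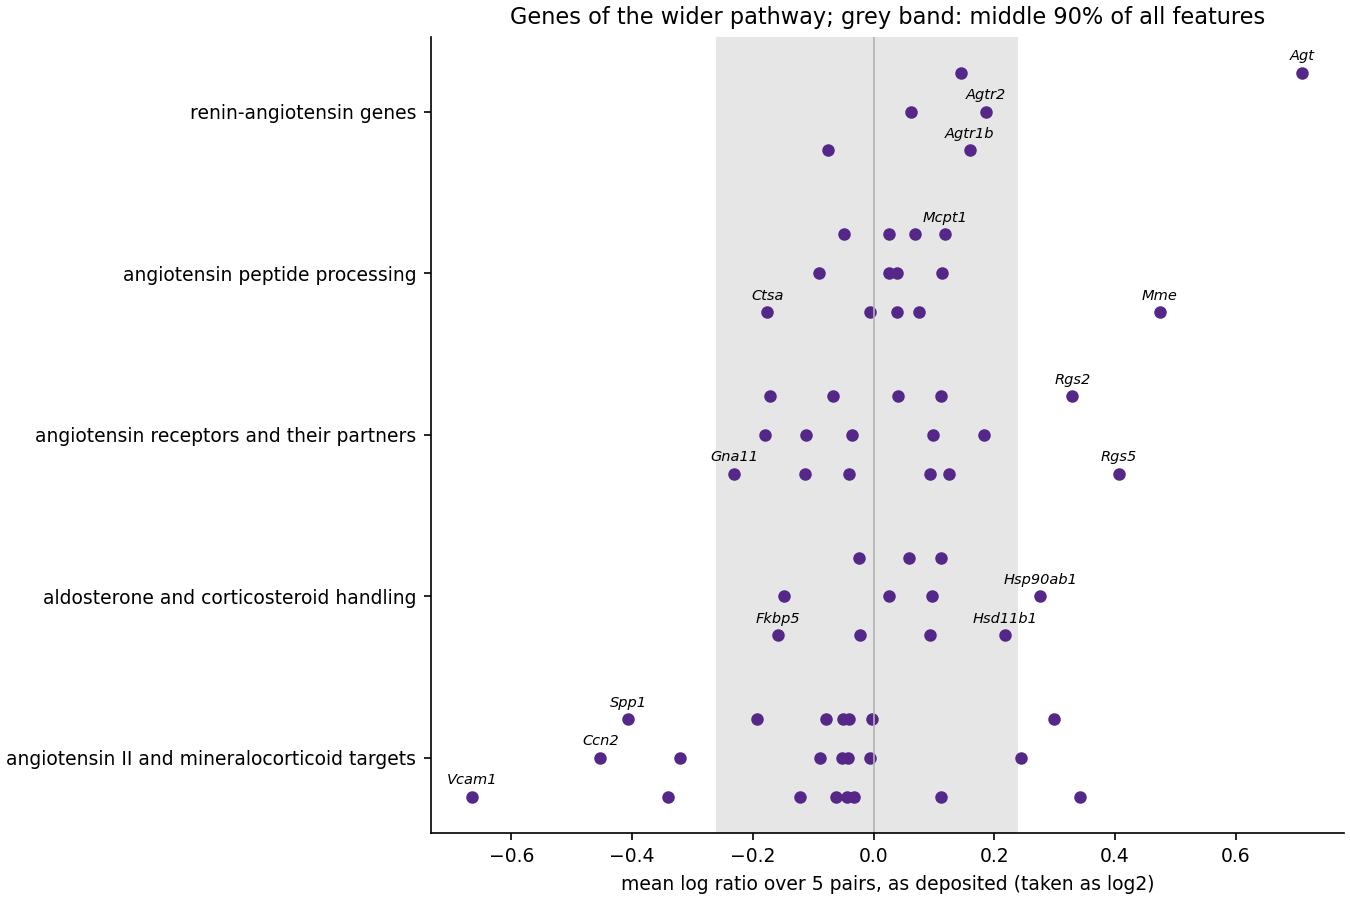
Mean log ratio over the 5 pairs (x axis, taken as log2, as deposited) of each measured gene in the 6 renin-angiotensin genes and 4 lists of the wider pathway, with the 3 largest in size labelled per list. The grey band holds the middle 90% of all features (-0.26 to 0.24), and *Agt* at 0.71 lies farthest to the right.

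The dye orientations were compared over the 4 swapped pairs. *Agt* was higher on the Cy3 array than on the Cy5 array in all 4, by 0.37 ± 0.12 (SD, n = 4 pairs, 95% interval 0.10 to 0.63), with a limma adjusted p of 0.166. The difference of *Ace* was 0.51 ± 0.69 and that of *Agtr1b* -0.37 ± 0.75, with adjusted p of 0.331 and 0.488. Those of *Agtr1a*, *Agtr2* and *Nr3c2* were 0.082 ± 0.25, -0.057 ± 0.93 and -0.11 ± 0.33. Of the 6 genes 0 passed, as did 0 percent of all features. At an unadjusted p under 0.05 the count was 1 of 6, beside 4082 of all features (21.0%).

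Were the Cy5 arrays not turned before deposit, the group comparison would lie in the values with their sign reversed. *Agt* would then average 0.17 ± 0.059 (95% interval 0.023 to 0.32, limma adjusted p = 0.267), with 0.25, 0.13, 0.20, 0.10 and 0.17 in pairs 193, 194, 197, 199 and 220. It would be positive in each pair, as would 10.2% of all features. In the swapped pairs these values are the half-differences of the 2 arrays. Under the reading as deposited they hold dye effects, so they are no further estimate of the same group difference. *Ace* would be at 0.30 ± 0.32 (adjusted p = 0.279) and positive in 4 of 5 pairs. *Agtr1a* would be at 0.052, *Agtr1b* at -0.15, *Agtr2* at -0.035 and *Nr3c2* at -0.043, each with the sign opposite to that of the values as deposited. None of the 6 would pass in this reading, where 0 percent of all features did. An unadjusted p under 0.05 was reached by 2 of 6 and by 3131 of all 19478 features, against 929 of them as deposited. In pairs 197 and 199 the values of *Agt* had 1 sign on both arrays at sizes of 0.93 to 1.94, and they largely cancel under this reading. The white adipocyte list means would cancel likewise, at 2.18 and 1.97 on the Cy3 and Cy5 arrays of pair 197 and 1.84 and 1.95 in pair 199. The endothelial list means of pair 199 had opposite signs, at 0.047 and -0.24. Which reading holds was not tested.

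**Figure D5:**
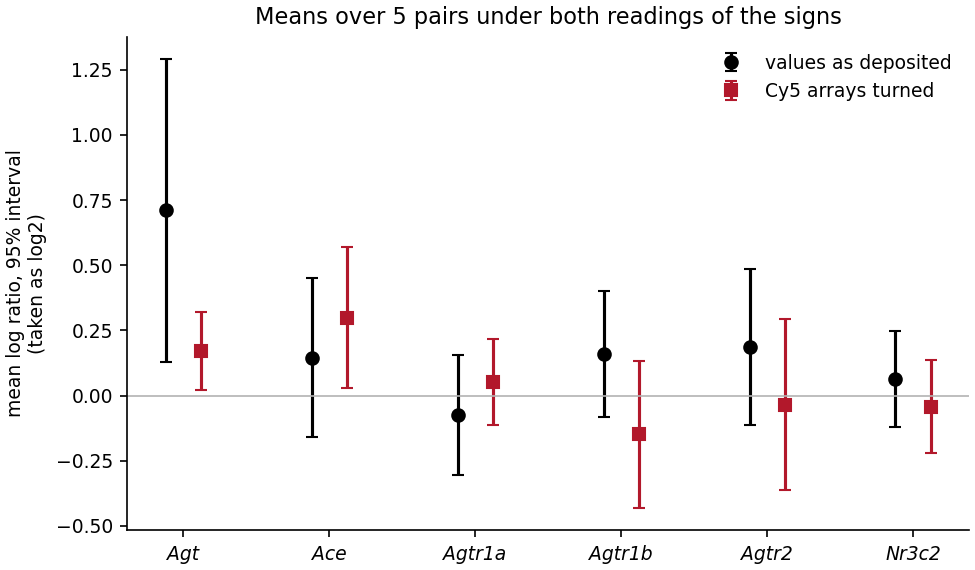
Mean log ratio over 5 pairs with its 95% interval from limma (y axis, taken as log2) for each gene, as deposited (black circles) and after the Cy5 arrays were given the opposite sign (red squares). *Agt* is positive in both (0.71 and 0.17), and *Agtr1a*, *Agtr1b*, *Agtr2* and *Nr3c2* change sign between them.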

How the data were processed

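RNA of thoracic aortas was extracted with Trizol and hybridised to two-colour Agilent arrays, per the labels. The authors deposited 1 log ratio per feature and array, taken here as log2, for 22575 features. Every array had a mean of 0, and neither labels nor headers record the scanner software, background correction, normalization, log base or direction of the ratio. Dim features could not be filtered, and precision is limited by the number of animal pairs, which was 5. The series' design text counts 10 samples, of which 9 were analysed.

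Features were named through the platform's annotation, which gave 12750 features a single symbol, left 9820 unnamed and gave 5 more than 1. They were numbered by columns of the array grid and not in file order. Under this numbering probes of the same gene that exceeded 1 in size in any pair correlated over the 5 pairs at a median r of 0.96 (54 probe pairs), against 0.28 in file order (28 probe pairs).

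Probes of a gene and the 2 arrays of a pair were averaged, since both arrays carry the same 2 RNA extracts. An intercept was fitted over the 5 pairs with limma 3.58.1 in R 4.3.3, with Benjamini-Hochberg adjustment over all 19478 features, after a test on simulated data. The 2 arrays of a pair share a number because they carry the same animals, and no animal was in more than 1 pair. The limma p-values measure the spread between the animal pairs, with each feature's variance moderated toward that of all features. Littermates among the animals would make p-values too small. Named genes were the 6 members, the 3 genes with the largest mean of each pathway list, a few genes of the pathway chosen by role, the 2 markers with the largest mean for each marker list, and the genes most correlated with each member. *Lep*, *Adipoq*, *Cidec*, *Fasn*, *Ppargc1a* and *Fabp3*, among the adipocyte markers, were named after their values were seen. The members and lists were chosen with earlier results of these data known. Alternatives covered the sign of the Cy5 arrays, dye orientation, centring, scaling, probes, features, moderation and leaving out pairs or 1 array.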

Additional observations from a re-analysis of the deposited data

Results flagged for a closer look

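Outlying values were looked for in 30 sets of 4 or 5 values, and chance alone would mark about 1 in 20 of them. In 4 sets 1 value stood apart. *Agtr2* was at 0.78 in pair 199, above -0.062 to 0.14 in the other 4 pairs, from 1.48 on the Cy5 array and 0.076 on the Cy3 array. *Nr3c2* was at 0.24 in pair 220, above -0.011 to 0.053 in the others. Among the 5 Cy3 arrays *Ace* was lowest in pair 220, at 0.031, against 0.40 to 0.48 in the others. The Schwann cell list mean was at 2.24 in pair 194, which has 1 array, and *Agt* and *Ace* of that pair were at 0.13 and 0.48.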

How the results depend on the processing

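Under 17 alternatives the count of members past the threshold stayed at 0, and the count of features did too except for 1 feature without moderation of the variances (not a member, lowest adjusted p 0.00262). With the arrays entered singly and the animal pair as a replicate block the count was 0 of 6 members, and the mean of *Agt* was 0.77, and the block changed no call. The mean of *Agt* stayed positive in all 17, from 0.17 with the Cy5 arrays turned to 0.87 without pair 220, with limma adjusted p from 0.267 upward. The 0.17 rests on half-differences between arrays in the swapped pairs, so its sign is no check on the sign of the other means. Turning the Cy5 arrays reversed *Agtr1a* (0.052), *Agtr1b* (-0.15), *Agtr2* (-0.035) and *Nr3c2* (-0.043), and *Ace* reversed on the Cy5 arrays alone (-0.19). With 1 pair omitted, *Agt* ran between 0.43 (without pair 199) and 0.87 (without pair 220), *Ace* between 0.062 (without pair 194) and 0.26 (without pair 199) and *Agtr2* between 0.038 (without pair 199) and 0.25 (without pair 194). *Agtr1a* ran between -0.13 (without pair 197) and -0.016 (without pair 220), *Agtr1b* between 0.072 (without pair 220) and 0.20 (without pair 193), and *Nr3c2* between 0.018 (without pair 220) and 0.081 (without pair 193). The causes were not tested. Signals over background were not used here, so whether a member's probe was dim is unknown.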
